A study of Mus musculus with 6 samples.

Results

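Immunoglobulin superfamily adhesion molecules are cell-surface proteins that neurons use to recognise and hold on to other cells. Those described here are 34 genes of the L1, NCAM, contactin, IgLON, Cadm, nectin, Kirrel, Dscam and Sidekick families with 5 related genes. They were taken from the deposited table by symbol, and all 34 were found among its 56805 genes. The libraries were made from total RNA of mouse motor neurons at e12.5, 3 from the cervical and 3 from the thoracic spinal cord. Both regions came from embryos labelled as control in genotype, with no treatment given. How the motor neurons were isolated, and whether a replicate is an embryo or a pool, is not given in the sources used here, so a p-value here reflects only how these samples vary. Ribosomal RNA was removed before sequencing. The series title links the comparison to Hox5 genes and the diversity of motor neurons.

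Proteins of this superfamily carry immunoglobulin domains outside the cell and bind either the same protein or a relative on a neighbouring membrane. In the developing spinal cord they are known for axon bundling and growth, for the sorting of motor axons on their way to muscle, and for the choice of synaptic partners. Many proteins of the L1, NCAM, Cadm and nectin families cross the membrane, and some of them reach the cytoskeleton through ankyrin, spectrin or afadin. Contactins and IgLONs are held by a lipid anchor and signal through partners on the same membrane.

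Library totals lay between 32103071 and 33790634 counts, apart from thoracic replicate 1 with 53186131. The 34 genes together took 0.628 to 0.634% of the counts in cervical libraries and 0.634 to 0.682% in thoracic ones. Every one of 9 motor neuron genes was detected, at a summed 348 to 719.8 CPM (read counts brought to a common library total, scaled by the TMM method) in cervical and 442 to 680.4 CPM in thoracic libraries. By edgeR, 2 of the 9 had an unadjusted p below 0.05, as 8.47% of all genes did, and none was called at an adjusted p below 0.05. With the replicate number as a block 3 were called, higher in thoracic libraries. That fit called 1.39% of all genes in this direction. Genes of inhibitory interneurons, a list of 6, summed to 1305 to 1432 and 1071 to 1135 CPM, so the libraries also held RNA of other neurons. In every library this sum was above that of the 9 motor neuron genes. So was the sum of 8 neural progenitor genes, at 768 to 1021 and 934 to 1245 CPM. Sums over different genes do not measure the shares of cells, and the levels below are those of such mixed libraries. In such bulk samples, fewer cells of a type and less RNA per cell cannot be told apart.

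Levels of the adhesion genes differed widely once divided by exonic length. On this scale (RPKM, TMM-scaled CPM per kilobase of annotated exon, mean of 6 libraries), Ncam1 was the most abundant at 184, with single libraries from 173 to 202. Ncam1 encodes the neural cell adhesion molecule, which carries polysialic acid in the embryo. It took 23.8 to 25.7% of the summed CPM of the 34 genes. Next came Cadm4 at 96.8 RPKM (84.5 to 108 over libraries) and L1cam at 80.5 RPKM (73.3 to 87.9), whose ranges overlapped. Iglon5, Chl1 and Cadm3 followed at 53.2, 51.0 and 50.4 RPKM, and their library ranges overlapped as well. Nrcam, Nectin1 and Nfasc stood at 39.5, 38.6 and 34.5 RPKM, and Igsf9, Cntn2 and Cadm1 at 28.4, 19.1 and 17.8 RPKM. Nptn, Dscam and Nectin3 lay between 11.2 and 13.1 RPKM. The other 19 genes were below 10 RPKM, down to Opcml at 1.83 and Kirrel2 at 0.553 RPKM. Kirrel2 had as few as 40 counts in a library, while all 34 genes passed the filter on low counts.

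**Figure D1:**
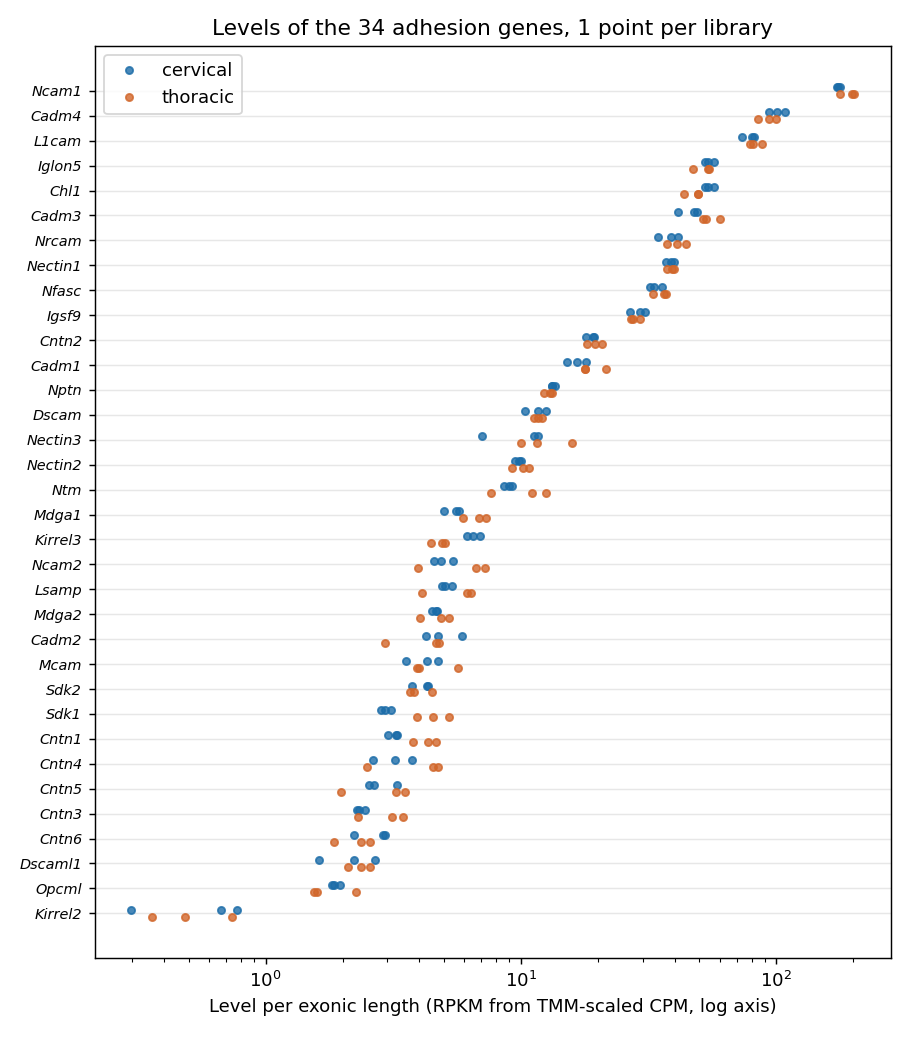
Level of each of the 34 genes per exonic length in each library (horizontal log axis, RPKM from TMM-scaled CPM), cervical in blue and thoracic in orange, ordered by the mean of 6 libraries. Ncam1 lies highest at 184 RPKM and Kirrel2 lowest at 0.553 RPKM, and the 2 regions overlap for 26 of the 34 genes.

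Between the regions the adhesion genes differed little, and the clearest difference was a higher level of Sdk1 in thoracic libraries. Sdk1 was the single member called among 34 (2.94%) in edgeR's quasi-likelihood test at a Benjamini-Hochberg adjusted p below 0.05 over 21972 genes. Of all genes tested, 0.542% were called, 0.191% with the higher level in cervical and 0.350% with it in thoracic libraries. The libraries carry replicate numbers that both regions share, and same-numbered libraries deviated together. With the replicate number as a block, 4 members (11.8%) were called, Kirrel3 higher in cervical and Sdk1, Cntn1 and Cadm3 higher in thoracic libraries. That fit called 1.97% of all genes, 0.573% toward cervical and 1.39% toward thoracic libraries.

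For 8 of the 34 genes (23.5%) the 3 cervical and 3 thoracic values did not overlap, against 13.7% of all genes tested. Chl1, Kirrel3 and Nptn were the 3 with all cervical values above all thoracic ones, a pattern seen in 6.25% of all genes. Ncam1, Cntn1, Cadm3, Sdk1 and Mdga1 were the 5 with all thoracic values higher, which 7.50% of all genes showed. An unadjusted edgeR p below 0.05 was found for 8 members (23.5%), against 8.47% of all genes. The shares of members and of all genes were not matched for expression level, and 14 of the 34 had a mean above 100 CPM. The median log2 fold change, cervical minus thoracic, was -0.06 over the 34 genes and 0.008 over all genes tested. Of the 34, 23 lay below 0 and 11 above. The median size of the log2 fold change, whatever its sign, was 0.12 for the members and 0.13 for all genes. For 25 members the 95% interval of the fold change lay within 1.5-fold in either direction, as it did for 51.0% of all genes. The 9 others include Sdk1, Kirrel3 and Cntn1, and genes with wide intervals such as Kirrel2.

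**Figure D2:**
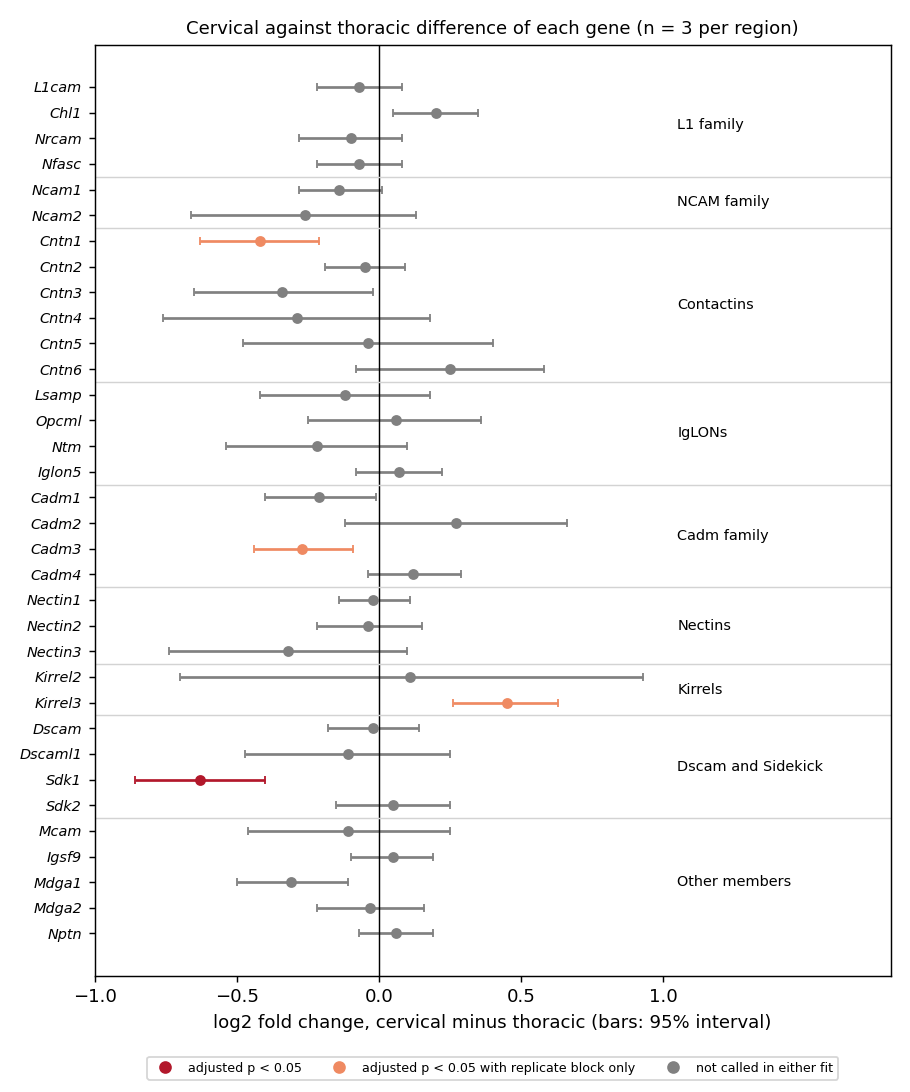
Log2 fold change of each gene, cervical minus thoracic, with its 95% interval from edgeR (horizontal axis), grouped by family (n = 3 libraries per region). Sdk1 at -0.63 is the gene called without the block, Cntn1, Cadm3 and Kirrel3 are called with it, and most other intervals cross 0.

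Sidekick proteins are large homophilic adhesion molecules, best known for matching synaptic partners in the layers of the retina. Sdk1 stood at 32.4, 34.3 and 31.5 CPM in cervical replicates 1, 2 and 3, and at 43.4, 50.3 and 58.0 CPM in the thoracic ones. All 3 thoracic libraries lay above all cervical ones, and the cervical values were the tighter group. The means of 32.7 ± 1.46 CPM for cervical and 50.6 ± 7.32 CPM for thoracic libraries (SD, n = 3) were 1.54-fold apart. The log2 fold change of -0.63 (SE 0.10, 95% interval -0.86 to -0.40) had an edgeR adjusted p of 0.0302, which became 0.00314 with the block. Within same-numbered pairs, log2 differences were -0.42, -0.55 and -0.88. Leaving out a single library ended the call of Sdk1 for cervical replicate 2 (edgeR adjusted p = 0.0903), cervical replicate 3 (0.149), thoracic replicate 2 (0.10) and thoracic replicate 3 (0.0852). Its log2 fold change stayed between -0.73 and -0.52 in the 6 fits with 1 library less.

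Summed markers of V3 interneurons, V2 interneurons and the floor plate were higher in every thoracic library than in any cervical one, as Sdk1 was. The sums of neural progenitor, pericyte and mesenchyme, dorsal interneuron and motor neuron genes overlapped between the regions. All 3 genes of V3 interneurons and their progenitors lay higher in every thoracic library, as 7.50% of all genes did, summing to 54.1 to 71.1 CPM in cervical and 95.3 to 118 CPM in thoracic libraries. V2 interneuron genes, with no overlap for 2 of 5, summed to 79.0 to 93.4 and 106 to 123 CPM. By edgeR 2 of the 3 V3 genes (median log2 fold change -1.37) and 1 of the 5 V2 genes were called. With the block it was 3 and 1. Floor plate genes, with no overlap for 3 of 4, summed to 191 to 425 and 435 to 639 CPM. By edgeR none of these 4 was called without the block, although each had an unadjusted p below 0.05 and was called with it. Neural progenitor genes (6 of 8 with a log2 fold change below 0, 2 called with the block) summed to 768 to 1021 and 934 to 1245 CPM. Pericyte and mesenchyme genes (7 of 7 below 0, 2 called with the block) summed to 20.5 to 169 and 99.4 to 176 CPM. Dorsal interneuron genes (5 of 8 below 0, 1 called without and 2 with the block) summed to 145 to 158 and 141 to 175 CPM. Of the dorsal genes, 1 lay higher in every cervical library and 2 in every thoracic one. All calls in these lists, from V3 to dorsal interneurons, were toward thoracic libraries. In that direction edgeR called 0.350% of all genes without the block and 1.39% with it. For motor neuron genes, whose sums are given above, 6 of 9 lay below 0. No marker of these lists was at 0 in all libraries. Their part in the Sdk1 difference, and in those of Cntn1 and Cadm3, was not tested.

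The other Sidekick gene, Sdk2, stood at 58.1, 67.0 and 66.5 CPM in cervical and 69.2, 57.0 and 58.7 CPM in thoracic libraries. Its regions overlapped, with a log2 fold change of 0.05 (95% interval -0.15 to 0.25, edgeR adjusted p = 0.95). Whether the regional difference itself differs between the Sidekick genes was not tested. Dscam, a homophilic receptor that keeps sister branches apart, was the most abundant of these 4 genes per length. It had 91.2, 110.1 and 103 CPM in cervical and 98.7, 106 and 103 CPM in thoracic libraries. Those values overlapped closely (log2 fold change -0.02, 95% interval -0.18 to 0.14, edgeR adjusted p = 0.983). Dscaml1 had a log2 fold change of -0.11 at 14.4 to 23.9 CPM over the 6 libraries.

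Sdk1 lies on chromosome 5 from 141227245 to 142201341 (mm39, plus strand), in 47 exonic blocks. Its exons share 69 bases with Gm16035 on the opposite strand, which had a mean of 20.3 counts against 1510.5 for Sdk1. The sequences upstream of the 3 genes called higher in thoracic libraries in either fit are shown because these genes moved in the same direction. They are the 250 bases before the annotated start, from RefSeq on GRCm38.p6, written 5′ to 3′ on the gene's strand with CG dinucleotides in capitals. They lie at chr5:141241284-141241533 (plus strand) for Sdk1, at chr15:92050915-92051164 (plus strand, the first of 3 starts) for Cntn1 and at chr1:173367696-173367945 (minus strand) for Cadm3.
Sdk1: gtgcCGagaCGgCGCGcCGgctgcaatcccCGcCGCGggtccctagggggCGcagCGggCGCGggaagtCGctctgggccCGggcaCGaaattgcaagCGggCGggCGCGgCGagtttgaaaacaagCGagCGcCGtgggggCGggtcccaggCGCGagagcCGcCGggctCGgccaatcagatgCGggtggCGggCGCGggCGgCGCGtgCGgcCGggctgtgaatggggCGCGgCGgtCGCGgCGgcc
Cntn1: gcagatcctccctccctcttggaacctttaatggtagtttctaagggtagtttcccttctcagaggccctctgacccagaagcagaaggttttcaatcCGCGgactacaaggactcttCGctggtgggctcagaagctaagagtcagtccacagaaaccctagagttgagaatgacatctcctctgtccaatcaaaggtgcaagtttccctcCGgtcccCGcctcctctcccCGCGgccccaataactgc
Cadm3: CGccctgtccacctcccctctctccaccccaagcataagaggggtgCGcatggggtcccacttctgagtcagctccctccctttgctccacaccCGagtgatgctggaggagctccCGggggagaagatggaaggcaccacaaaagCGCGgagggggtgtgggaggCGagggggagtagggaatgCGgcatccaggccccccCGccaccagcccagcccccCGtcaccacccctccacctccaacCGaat

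The Sdk1 window is dense in CG dinucleotides, with 44 of them and 78.0% G and C, at the 99.5th percentile of 32851 such windows by CG count. The Cntn1 window had 7 (55.3rd percentile) and the Cadm3 window 11 (65.5th percentile). The homeodomain core TAAT, searched on both strands, was found once in the Cntn1 window, and not in those of Sdk1 and Cadm3. That core occurred in 54.9% of all windows. Over the members, 29 had at least 1 window in the RefSeq table, and these genes had 37 windows, of which 15 held TAAT. Member windows had a median of 62.0% G and C and 12 CG dinucleotides, against 52.4% and 6 for all windows. The motif counts were not matched for this base composition. The Hox-Pbx composite TGATTNAT, searched likewise, was found in 1 of the 37, that of Cntn4, and in 2.8% of all windows. It holds TAAT where its open position is A. The Meis core TGACAG was found in 6 windows of 5 genes (Cntn2, Cntn5, Mcam, Cntn1 and Cadm2) and in 15.9% of all windows. The counts over members take in all 3 starts of Cntn1. Promoters of Ncam1, Dscaml1, Cadm1, Kirrel3 and Nectin1 were not used here.

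Contactins are lipid-anchored proteins that guide axons and, with Caspr partners, organise the membrane around nodes. Cntn1, the contactin of myelinated axon junctions, stood at 30.6, 30.9 and 28.4 CPM in cervical libraries. In thoracic libraries it had 44.0, 35.5 and 40.8 CPM. All thoracic values were higher, and the gap within same-numbered pairs was narrowest for replicate 2 (log2 differences -0.53, -0.20 and -0.53). The log2 difference of the fit was -0.42 (SE 0.10, edgeR adjusted p = 0.11), and it was called with the block (0.0293). Taking out replicate 1 or 3 of both regions, which left 2 pairs of libraries, ended that blocked call (edgeR adjusted p = 0.0700 and 0.141). Cntn1 was also called by DESeq2 (adjusted p = 0.00542) and by edgeR without a low-count filter (0.00214), but not by limma-voom (0.118). None of the 6 edgeR fits with 1 library less called it (adjusted p from 0.0711 to 0.370).

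Cntn2, which early commissural and motor axons carry, was the most abundant contactin per length. It had 179.7, 178 and 167 CPM in cervical and 193, 182 and 168 CPM in thoracic libraries. The groups overlapped, with a log2 fold change of -0.05 (95% interval -0.19 to 0.09, edgeR adjusted p = 0.928). Cntn3, a relative with few known roles in the spinal cord, stood at 15.3, 15.6 and 16.5 CPM in cervical libraries. Its thoracic values were 15.5, 23.3 and 21.1 CPM. Thoracic replicate 1 fell among the cervical values (log2 fold change -0.34, edgeR adjusted p = 0.542). Cntn4, Cntn5 and Cntn6 lay between 8.92 and 40.2 CPM over all libraries. Their log2 fold changes were -0.29, -0.04 and 0.25, and the regions overlapped for each.

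Cadm proteins, also known as SynCAMs or nectin-like molecules, join axons to glia and span the synaptic cleft. Cadm3 had 298, 344 and 353 CPM in cervical and 374, 385 and 436 CPM in thoracic libraries. The regions did not overlap, though cervical replicates 2 and 3 came close to thoracic replicate 1. The log2 difference of the fit was -0.27 (SE 0.08, edgeR adjusted p = 0.290), and it was called with the block (0.0306). Within pairs, the log2 differences were -0.33, -0.16 and -0.31. Without replicate 2 or 3 of both regions, in fits on 2 pairs, that blocked call was lost (edgeR adjusted p = 0.0924 and 0.139). Cadm3 was also called by edgeR without a low-count filter (adjusted p = 0.00523), but not by DESeq2 (0.0967) or limma-voom (0.255). None of the 6 edgeR fits with 1 library less called it (adjusted p from 0.299 to 0.598). Cadm3 shares 361 exonic bases on its strand with Ackr1, which had a mean of 992.2 counts against 13223.8, so its level is uncertain to that extent.

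The most abundant Cadm gene per length was Cadm4, whose protein binds axons to Schwann cells. It stood at 203, 234 and 217 CPM in cervical and 202, 216 and 183 CPM in thoracic libraries. These overlapped, with a log2 fold change of 0.12 (95% interval -0.04 to 0.29, edgeR adjusted p = 0.769). Cadm1 had values of 178 to 213 CPM in cervical and 210.5 to 255 CPM in thoracic libraries, and its log2 difference of -0.21 was not called (edgeR adjusted p = 0.538). Cadm2 had 41.8 to 57.7 and 28.7 to 47.0 CPM (log2 fold change 0.27, edgeR adjusted p = 0.785). So 2 of the 4 Cadm genes lay on each side of 0.

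Kirrel proteins are relatives of nephrin that sort axons by homophilic binding, as described for olfactory axons. Kirrel3 stood at 42.0, 44.6 and 39.7 CPM in cervical and 28.6, 31.6 and 32.6 CPM in thoracic libraries. Every cervical value was higher, and the spread within a region was small beside the gap. The means were 42.1 ± 2.46 and 30.9 ± 2.10 CPM (SD, n = 3), 1.36-fold apart. The log2 fold change was 0.45 (SE 0.09, 95% interval 0.26 to 0.63), just short of the threshold without the block (edgeR adjusted p = 0.0544) and past it with the block (0.0133). Kirrel3 was also called by DESeq2 (adjusted p = 9.0e-04), limma-voom (0.0482) and edgeR without a low-count filter (7.9e-04). It was called in none of the 6 edgeR fits with 1 library less (adjusted p from 0.0817 to 0.236). Without replicate 2 of both regions, in a fit on 2 pairs, the blocked call was lost (edgeR adjusted p = 0.139).

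Genes of inhibitory interneurons also had a higher summed level in every cervical library than in any thoracic one, while the sums of sensory ganglion genes overlapped. For inhibitory interneurons, whose sums are given above, 3 of 6 genes lay higher in every cervical library, as 6.25% of all genes did. By edgeR 2 of the 6 were called higher in cervical libraries, against 0.191% of all genes. Of 9 sensory ganglion genes, 8 had a log2 fold change above 0 and 1 did not overlap between regions. None was called without the block. With it 2 were called higher in cervical libraries (0.573% of all genes) and 1 in thoracic ones (1.39%). The sensory ganglion genes summed to 609 to 719 CPM in cervical and 542 to 654 CPM in thoracic libraries. Of these genes, Isl1 is also in the motor neuron list and Pou4f1 in the dorsal interneuron list. Sums of Schwann lineage, macrophage and erythroid genes overlapped between the regions as well. Of 6 Schwann lineage genes, 3 lay above 0, and 1 was called higher in cervical libraries without and with the block. All 4 tested macrophage genes lay above 0 and none was called. The 2 tested erythroid genes lay above 0, and with the block 1 was called higher in cervical libraries. No gene of these lists was at 0 in all libraries. The part of these cell types in the Kirrel3 difference was not tested. Kirrel2, which is best known from the kidney and olfactory system, had 1.17 to 3.04 CPM over the 6 libraries, with a log2 fold change of 0.11 and an interval of -0.70 to 0.93. Differences of either sign within that interval remain possible for Kirrel2. Its SD was 43.0% of the mean in cervical and 36.7% in thoracic libraries.

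**Figure D3:**
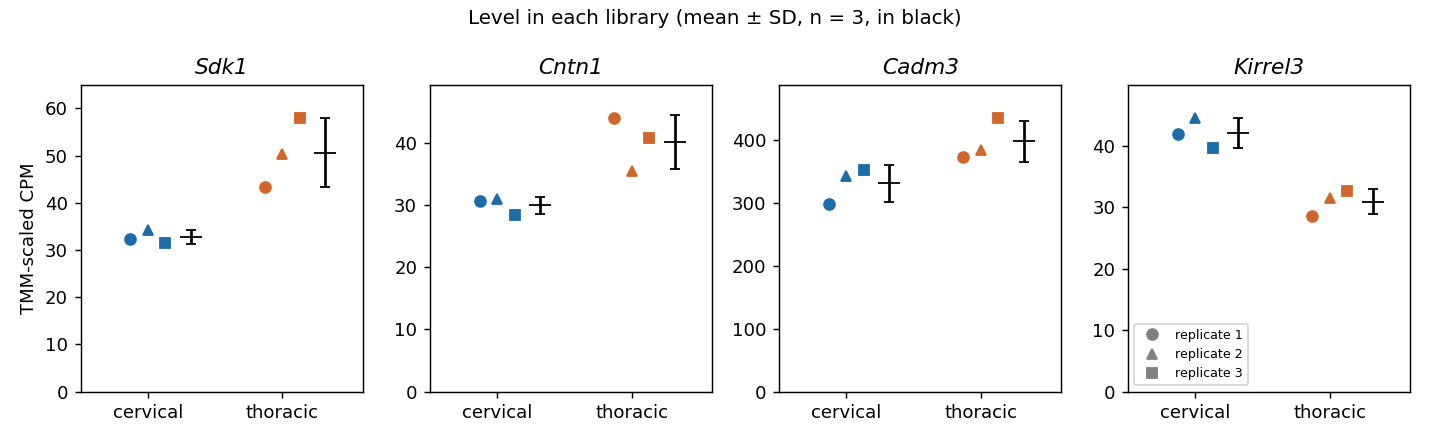
TMM-scaled CPM of Sdk1, Cntn1, Cadm3 and Kirrel3 in each library (vertical axes from 0), with circles, triangles and squares for replicates 1, 2 and 3 and the mean ± SD of 3 libraries in black. The regions do not overlap for any of the 4 genes, with Kirrel3 higher in cervical libraries and the others higher in thoracic ones.

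L1 family proteins promote the growth and bundling of axons and bind ankyrin at the axon initial segment and at nodes. L1cam, the most abundant per length, had 601, 539 and 591 CPM in cervical and 646, 579.8 and 594 CPM in thoracic libraries. The regions overlapped (log2 fold change -0.07, 95% interval -0.22 to 0.08, edgeR adjusted p = 0.879). Chl1, the close homologue of L1, was the family member without overlap. It had 663, 649 and 701 CPM in cervical and 537, 606 and 607 CPM in thoracic libraries, and thoracic replicate 1 was the lowest. The log2 fold change of 0.20 (SE 0.07) was not called (edgeR adjusted p = 0.365, and 0.106 with the block). Nrcam and Nfasc, both with roles at the axon initial segment, had log2 fold changes of -0.10 and -0.07 and overlapping regions. All 4 intervals of this family lay within 0.35 of 0 on the log2 scale.

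In the NCAM family, Ncam1 had 1539.5, 1500.1 and 1515 CPM in cervical and 1540.3, 1719 and 1751 CPM in thoracic libraries. Thoracic replicate 1 all but equalled cervical replicate 1, while the other 2 thoracic libraries stood above. Ncam1 was called neither without nor with the block (log2 difference -0.14, SE 0.07, edgeR adjusted p = 0.618 and 0.373). Its exons share 417 bases with Gm11149, which had a mean of 392.5 counts against 57417.0. Ncam2, a homologue with a known role in olfactory axons, had 51.8, 61.4 and 55.1 CPM in cervical and 44.8, 75.5 and 82.0 CPM in thoracic ones. Here thoracic replicate 1 was the lowest of all 6 libraries and thoracic replicate 3 the highest (log2 fold change -0.26, edgeR adjusted p = 0.805).

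IgLONs are small lipid-anchored molecules that modulate neurite growth and synapse number. Iglon5 had the highest level per length of the 4, at 149, 141 and 138 CPM in cervical and 141, 143 and 124 CPM in thoracic libraries. Its regions overlapped (log2 fold change 0.07, 95% interval -0.08 to 0.22, edgeR adjusted p = 0.880). Lsamp, the limbic system-associated molecule, had 84.6 to 92.3 CPM in cervical and 70.6 to 109.9 CPM in thoracic libraries. Ntm, or neurotrimin, had 69.3 to 74.6 and 61.5 to 101 CPM, and Opcml had 26.4 to 28.3 and 22.4 to 32.9 CPM. In each of these 3 the thoracic range enclosed the cervical one. Their log2 fold changes were -0.12, -0.22 and 0.06.

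Nectins form junctions between unlike cells and recruit afadin to them. Nectin1 had 261, 253 and 242 CPM in cervical and 257, 261 and 245 CPM in thoracic libraries, so its levels were nearly equal. Its log2 fold change of -0.02 had an interval of -0.14 to 0.11 (edgeR adjusted p = 0.982). Nectin2 had 32.2 to 37.4 CPM over the 6 libraries (log2 fold change -0.04). Nectin3 varied most between replicates, at 89.6, 143 and 149 CPM in cervical and 128, 147 and 202 CPM in thoracic libraries. In every pair the thoracic library was higher, with log2 differences of -0.52, -0.04 and -0.44, while the regions overlapped. It was not called (log2 fold change -0.32, edgeR adjusted p = 0.752, and 0.0620 with the block).

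Among the 5 other genes, Igsf9, a relative of the fly gene turtle with roles in dendrites and inhibitory synapses, was the most abundant per length. It had 202, 176 and 194 CPM in cervical and 194, 182 and 178 CPM in thoracic libraries. The regions overlapped, with a log2 difference of 0.05 (95% interval -0.10 to 0.19, edgeR adjusted p = 0.932). Mdga proteins bind neuroligins and limit their contact with neurexins. Mdga1 had 47.6, 54.6 and 52.9 CPM in cervical and 69.7, 65.1 and 56.6 CPM in thoracic libraries. Its regions did not overlap, yet it was called in neither fit (log2 difference -0.31, SE 0.09, edgeR adjusted p = 0.266 without and 0.115 with the block). Mdga2 had 74.0 to 95.6 CPM (log2 fold change -0.03). Nptn, or neuroplastin, a subunit of calcium pumps, stood at 81.4 to 83.6 CPM in cervical and 75.9 to 81.4 CPM in thoracic libraries. Its regions touched at the third digit (log2 fold change 0.06, edgeR adjusted p = 0.897). Mcam, which vessels also express, had 11.9 to 18.9 CPM (log2 fold change -0.11). Endothelial genes summed to 4.93 to 11.7 CPM in cervical and 8.19 to 12.7 CPM in thoracic libraries, and all 6 were detected.

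Spread between replicates was not the same for all members, and in thoracic replicates 1 and 3 it went with the genomic span of the gene. Of the 34 genes, 10 span more than 500 kb, up to 2197.3 kb for Lsamp. These are Cntn4, Cntn5, Lsamp, Opcml, Ntm, Cadm2, Kirrel3, Dscam, Sdk1 and Mdga2. Thoracic replicate 1 was the lowest of the 3 thoracic libraries for 9 of the 10, Opcml being the exception, and for 11 of the 24 shorter genes. Against the mean of the other 2 thoracic libraries, its median log2 deviation was -0.47 over the 10 long genes and -0.03 over the 24 shorter ones. Cntn4 stood furthest below, with a deviation of -0.89. In thoracic replicate 3 the medians were 0.31 and 0.03. The deviations of a gene cancel out over the 3 libraries of a region, so a low library raises the others. Thoracic replicates 1 and 3 are therefore not separate observations of the pattern. In cervical replicates the medians of the long genes lay between -0.06 and 0.12.

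Over all 223 tested genes that span more than 500 kb, the 10 members among them, thoracic replicate 1 had a median deviation of -0.24, against 0.01 over all 21972 genes. Across the 34 members, the correlation of the deviation with the log10 span was -0.67, 0.29 and 0.71 in thoracic replicates 1, 2 and 3. In cervical replicates 1, 2 and 3 it was -0.29, 0.45 and -0.38. Without Kirrel2, the gene with the lowest counts, the thoracic values were -0.61, 0.13 and 0.71 and the cervical ones -0.13, 0.33 and -0.25, over 33 genes. Over all 17086 genes with a mean CPM of at least 1, the correlation was weaker, at -0.12, 0.03 and 0.06 in thoracic replicates 1, 2 and 3. The cervical values over these genes were -0.02, -0.04 and 0.06, so cervical replicate 3 equalled thoracic replicate 3. For cervical replicates 2 and 3 the sign was opposite to that over the members. These correlations run across genes that share their libraries and are given as a description. Thoracic replicate 1 is also the library with the largest total, and the part of depth in this pattern was not tested. Sdk1 is a long gene itself and stood at -0.32 in thoracic replicate 1 and 0.31 in thoracic replicate 3. Without thoracic replicate 1 its log2 fold change was -0.73 and it was called (edgeR adjusted p = 0.0120). Without thoracic replicate 3 it was -0.52 and the call was lost (edgeR adjusted p = 0.0852). Without thoracic replicate 1 the median log2 fold change of the 34 genes was -0.10.

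**Figure D4:**
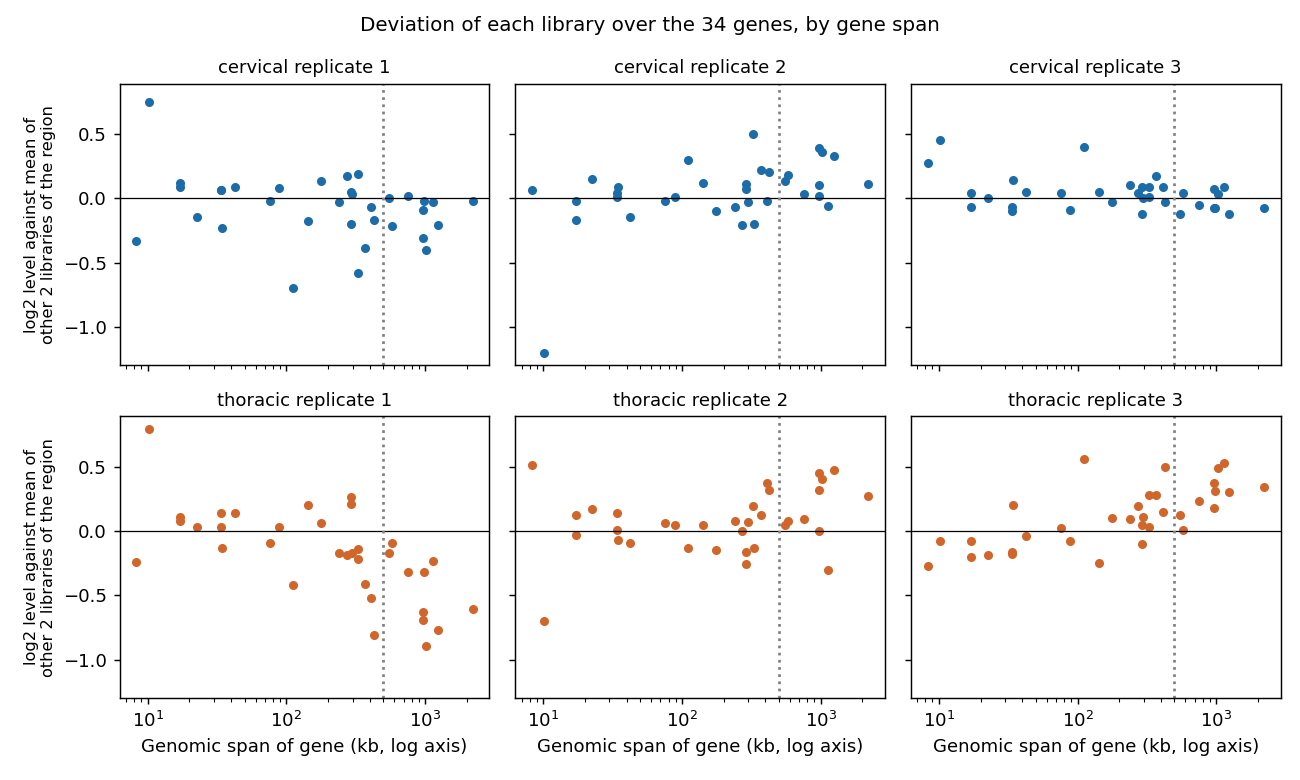
Log2 level of each of the 34 genes in a library against the mean of the other 2 libraries of its region (vertical axes), by the genomic span of the gene in kb (horizontal log axis), with 1 panel per library and a dotted line at 500 kb. In thoracic replicate 1 the long genes fall below 0, with a median of -0.47, and in thoracic replicate 3 they lie above it at 0.31. The deviations of a gene cancel out over the libraries of a region.

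Several members are neighbours in the genome. Chromosome 9 holds 10 of the 34 genes, among them Ncam1, Cadm1 and Kirrel3, and Opcml and Ntm lie 69.3 kb apart there. Chromosome 16 holds 5, and chromosomes 1 and 6 hold 4 each. On chromosome 6, from 102139616 to 106676271 (mm39), Cntn3, Chl1, Cntn6 and Cntn4 follow one another. Of these, Chl1 and Cntn6 had log2 fold changes above 0 (0.20 and 0.25), and Cntn3 and Cntn4 below 0 (-0.34 and -0.29). On chromosome 1, Cntn2 and Nfasc lie 21.4 kb apart, with log2 fold changes of -0.05 and -0.07. None of these 6 genes on chromosomes 6 and 1 was called in the fit without or with the block.

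Related genes were also counted, 67 in all, of which 29 are further adhesion genes of the superfamily and the others partners or modifying enzymes. Of the 67, 2 were called, both higher in thoracic libraries, where 0.350% of all genes were called in that direction. The block raised this count to 5, each of them with the higher level in thoracic libraries, against 1.39% of all genes. Among the 29 adhesion genes none was called by edgeR, 5 had an unadjusted p below 0.05 (8.47% of all genes did), and 2 were called with the block. DESeq2 called 3 of the 67 and limma-voom none, while over all genes they called 408 and 107. The 2 blocked calls were Alcam and Cdon. Alcam, an activated leukocyte adhesion molecule that motor axons carry, had 49.7, 72.5 and 82.9 CPM in cervical and 75.8, 100.3 and 139.6 CPM in thoracic libraries. Its regions overlapped, while each thoracic library was above the cervical one of its number (log2 fold change -0.62, edgeR adjusted p = 0.381, and 5.3e-04 with the block). Cdon, a co-receptor for hedgehog proteins, differed by -0.32 on the log2 scale, with an edgeR adjusted p of 0.266 that became 0.0383 with the block. The smallest unadjusted p of that list was that of Prtg, or protogenin, at 0.00338 (log2 fold change -0.46, edgeR adjusted p = 0.197).

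Of 19 surface partners, such as Caspr proteins, receptor phosphatases and neuroligins, Cntnap4 was called. Cntnap4, a Caspr family gene, had 14, 12 and 13.5 CPM in cervical and 18.5, 21.6 and 22.9 CPM in thoracic libraries, with no overlap. Its log2 fold change was -0.67 (SE 0.12, edgeR adjusted p = 0.0378), and it was called in 2 of the 6 fits with 1 library less (those without cervical or thoracic replicate 1). Of 14 cytoplasmic partners, Ezr was called. Ezr, or ezrin, links membrane proteins to actin and had 31.0, 34.6 and 32.3 CPM in cervical and 41.9, 49.5 and 44.5 CPM in thoracic libraries. Its log2 fold change was -0.47 (SE 0.09, edgeR adjusted p = 0.0484), and it was called in none of the 6 fits with 1 library less (edgeR adjusted p from 0.0644 to 0.201). Its relative Msn, or moesin, was called with the block alone (log2 fold change -0.35, edgeR adjusted p = 0.227, and 0.0469 with the block). None of 5 enzymes that add polysialic acid to NCAM or cleave L1 proteins was called in either edgeR fit, and 1, Adam17, had an unadjusted p below 0.05 (0.0381).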

How the data were processed

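The authors deposited raw read counts by gene. The submitters' processing notes name FastQC 0.11.9, STAR 2.7.5b, featureCounts 2.0.1 and mm39. A stranded kit was used on 10 to 20 ng of input with 15 cycles of amplification, per the labels' protocols. Which gene annotation and strand option the counting used is not given in the sources used here, so reads of genes that share exons cannot be told apart. This touches 13 members. Exonic lengths are the authors' deposited gene lengths.

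Genes were kept by edgeR 4.0.16's default filter (R 4.3.3, minimum count 10). This left 21972 genes and removed 0.117% of counts. Counts were scaled by TMM and compared between regions over all genes by the quasi-likelihood test of edgeR, with Benjamini-Hochberg adjustment. Fold changes use a prior count of 0.125, and intervals are the fold change ± SE times a t quantile. CPM are TMM-scaled. Alternatives were RLE and library-total scaling, other filters, DESeq2 1.42.0, limma-voom (limma 3.58.1), a replicate block and leaving out each library. Replicate numbers come from the titles. Same-numbered libraries deviated together from their region's mean (correlations 0.163, 0.160 and 0.195 over 21972 genes), all above the minimum of 0.1 set for pairing.

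Members and lists were chosen with earlier results of these data known. All values of a library were given for members called in either fit, the highest per length of each family, and the 4 largest fold changes. The values of Ncam2, Chl1, Sdk2, Nectin3 and Mdga1 were added after they were seen. Related genes were named where called, or by the smallest p of a list. Of the 69 symbols listed for related genes, 2 were not used here.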

Additional observations from a re-analysis of the deposited data

How the results depend on the processing

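Of 544 alternative values of the 34 members (16 settings each), 484 kept the direction and the side of the threshold, 4 lost a call, 24 gained one and 32 changed sign. The sign changes concern 11 genes with a log2 fold change of at most 0.118 in size, and none was called. The count of members called was 1, and it was 6 without a low-count filter, 3 with DESeq2, 2 with limma-voom and 4 with the replicate block. It was 0 to 1 when a library was left out. With the block but without replicate 1, 2 or 3 of both regions, an alternative added after the data were seen, it was 10, 3 and 3. These fits rest on 2 pairs of libraries, which leave little from which to estimate variation. Nrcam, Ncam1, Ncam2, Cntn4, Lsamp, Ntm and Cadm1 were among the 10. Over all genes the 119 calls became 747 without a filter, 408 with DESeq2, 107 with limma-voom and 432 with the block. They became 9 to 159 without a library. With the block and without replicate 1, 2 or 3 of both regions they became 798, 184 and 283. The 2 related genes called became 1 with library totals, 10 without a filter, 1 at a mean CPM of at least 1, 0 with limma-voom, 5 with the block, 0 to 1 without a library, and 8 and 1 with the block and without replicate 1 or 2. The causes were not tested. The median log2 fold change of the members stayed between -0.10 and -0.04.

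Among values that changed sign, limma-voom gave 0.06 for Cntn5 and -0.0018 for Kirrel2. With the block and without replicate 1 of both regions Dscam had 0.02. Without replicate 2 of both regions the blocked values were 0.04 for Cntn5, -0.0007 for Opcml, 0.0015 for Nectin1, 0.01 for Nectin2, -0.04 for Sdk2 and 0.06 for Mcam. Without replicate 3 of both regions they were 0.13 for Cntn5, 0.05 for Lsamp, -0.08 for Kirrel2, -0.01 for Sdk2 and 0.07 for Mdga2. When a library was left out, log2 fold changes ranged from -0.27 to 0.12 for Cntn5, -0.04 to 0.26 for Opcml, -0.04 to 0.01 for Nectin1, -0.09 to 0.01 for Nectin2, -0.15 to 0.45 for Kirrel2 and -0.08 to 0.05 for Dscam. They ranged from -0.29 to 0.06 for Dscaml1, -0.0015 to 0.14 for Sdk2, -0.20 to 0.09 for Mcam and -0.13 to 0.05 for Mdga2. Among the members, counts were fewest for Kirrel2, at 40 in its lowest library, and its interval was the widest.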
